A study of Mus musculus with 12 samples.

Results

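This account describes 10 genes of the Nrf2 antioxidant pathway, out of 17419 genes in the deposited table, through cells exposed to 4-thiouridine (4sU) for up to 120 min. The 10 genes were chosen by name, and each was present in the table: Nfe2l2 and Keap1, Slc7a11, Gclc and Gclm, Txn1, Txnrd1 and Srxn1, and Hmox1 and Nqo1. The cells were NIH-3T3, an immortalised mouse fibroblast line, labelled as wild type. They received 4sU at 800 µM for 15, 30, 60, 90 or 120 min, or no 4sU (no4sU). Each of these 6 groups had 2 replicates, A and B, and no other treatment is named in the labels. 4sU is a uridine that carries sulphur in place of an oxygen and is built into RNA as it is made. In SLAM-seq, iodoacetamide is added to the extracted RNA so that incorporated 4sU is read as C. From these conversions comes the new-to-total ratio (NTR), for each gene the fraction of its transcripts synthesised since 4sU was added. The series title names its purpose, the effect of labelling duration on quantification. The labels do not say whether replicates came from separate cultures, so p-values measure the spread between these libraries only, which may be technical.

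As background, Nfe2l2 encodes Nrf2, a transcription factor that cells make and destroy continually. Keap1 binds Nrf2 and hands it to a ubiquitin ligase, and reactive compounds that modify cysteines of Keap1 let Nrf2 escape. Nrf2 then pairs with small Maf proteins on antioxidant response elements and turns on genes that make glutathione, reduce thioredoxin, degrade haem and detoxify quinones.

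The core of the antioxidant response element, TGACNNNGC, was searched on both strands of RefSeq promoter windows on GRCm38.p6, which run from 250 bases before to 50 bases after a gene's start. Windows were at hand for 8 of the 10 genes, 10 windows in all. Of these 10 windows, 4 held a match, each in a different gene. Of all 32851 promoter windows, 12.4% held one. The matches are shown because they are the letters that Nrf2 and its Maf partners are known to read. Each is printed 5′ to 3′ on the gene's strand with 10 bases on either side, and capitals mark the match.
Nfe2l2: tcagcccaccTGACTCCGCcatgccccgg
Srxn1: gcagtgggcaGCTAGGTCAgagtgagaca
Gclm: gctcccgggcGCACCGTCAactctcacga
Txnrd1: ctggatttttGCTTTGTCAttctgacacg
The Nfe2l2 stretch (chr2:75704885-75704913, minus strand) held the core on the gene's own strand, 240 bases before the start. In the other 3 the core lay on the opposite strand, so the capitals show its reverse complement. The Srxn1 stretch (chr2:152105542-152105570, plus strand) began its match 28 bases after the start. The Gclm match (chr3:122245413-122245441, plus strand) began 134 bases before the start. That of Txnrd1 (chr10:82859104-82859132, plus strand) began 92 bases before the start of 1 of its 3 windows. Keap1, Nqo1, Slc7a11 and Txn1 had windows without these letters, and Hmox1 and Gclc had no window at hand. A match is a run of letters and not a measured binding site.

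Total counts were between 9917026 and 13739380 per library. All 8 fibroblast markers were present, with Fn1 at a median of 7034 CPM (counts scaled to a common library size) and Vim at 4201 CPM. Their summed level was 15780 and 15930 CPM without 4sU, and the 120 min libraries had 18850 and 19420 CPM. Epithelial Cdh1 and Krt8, immune Ptprc and endothelial Pecam1 were at or near 0 (at most 0.388 CPM). Higher values were found for immune Cd68 (4.20 to 6.76 CPM) and endothelial Cdh5 (0.661 to 1.55 CPM). The 2 no4sU libraries differed from each other more than labelled pairs did. The SD over genes of their A minus B log2 difference was 0.206, against 0.112 to 0.122 in the labelled pairs. In the no4sU pair that difference ran with transcript length (rho -0.576 over the 9065 genes averaging 100 or more counts), and the part of this in the comparisons with no4sU was not tested. For that reason the trend over the 10 labelled libraries is given before them.

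Per transcript length and without 4sU, Txn1 was the most abundant of the 10 genes and Slc7a11 the least. Length-scaled levels (TPM, mean over 2 libraries) were 1436 for Txn1, 584 for Txnrd1, 398 for Hmox1, 190.1 for Srxn1 and 136 for Nfe2l2. Nqo1 (90.0 TPM), Gclc (81.0 TPM) and Gclm (77.0 TPM) followed. The libraries of Nqo1 and Gclc overlapped, as did those of Gclc and Gclm. Keap1 was at 39.0 TPM and Slc7a11 at 5.75 TPM, with its 2 libraries at 4.28 and 7.23.

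The share of new RNA separated the 10 genes widely. At 120 min the NTR was 89.9% for Nfe2l2, 78.8% for Hmox1, 66.9% for Slc7a11, 58.5% for Gclc, 51.7% for Keap1, 50.6% for Txnrd1, 46.0% for Srxn1, 33.1% for Gclm, 21.9% for Nqo1 and 9.41% for Txn1 (means, n = 2). The pathway's own activator was therefore almost wholly new RNA after 120 min, and the RNA of thioredoxin was almost wholly old. Among 9065 genes these values lay between percentile 92.6 for Nfe2l2 and percentile 3.25 for Txn1. The deposited 90% intervals did not overlap between Nfe2l2 and Hmox1, Srxn1 and Gclm, Gclm and Nqo1, or Nqo1 and Txn1. They overlapped between the other neighbours in this order. The libraries themselves also overlapped from Gclc to Keap1 and from Keap1 to Txnrd1. At 15 min the libraries of every pair of neighbours overlapped, with means from 0.315% (Slc7a11) to 3.67% (Nfe2l2).

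**Figure D1:**
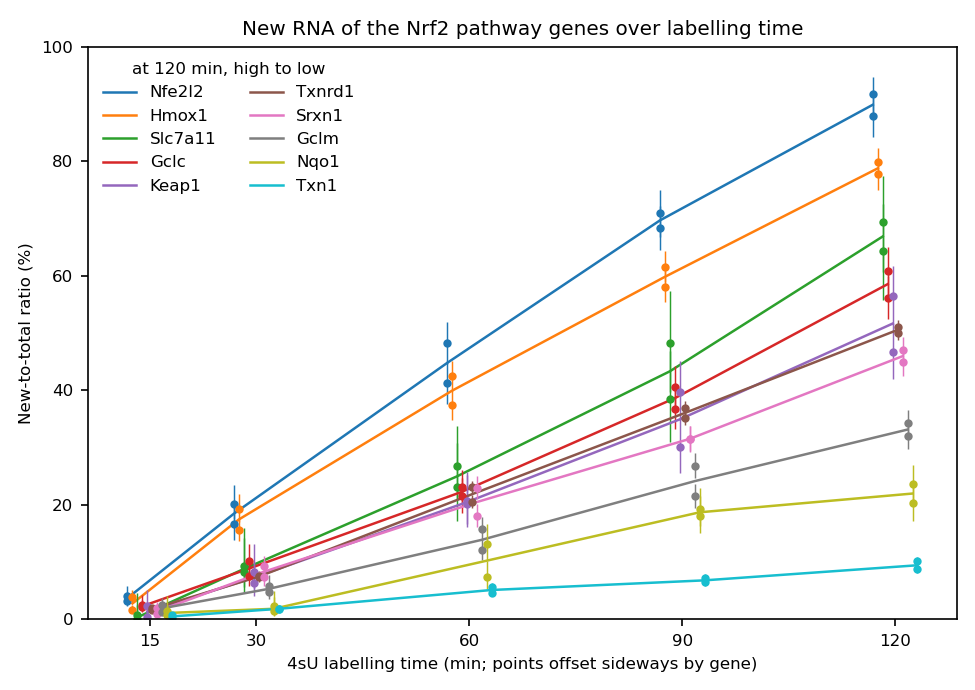
New-to-total ratio (%) of the 10 genes against labelling time (min). Points are libraries with their deposited 90% interval, lines join the means of 2 libraries, and points are offset sideways by gene. At 120 min the means run from 9.41% for Txn1 to 89.9% for Nfe2l2.

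The median NTR over the 10 genes was 51.2% ± 3.03 (SD, n = 2) at 120 min, and over all 9065 genes it was 35.4% ± 0.523. At 30 min these medians were 7.67% ± 0.180 and 5.21% ± 0.120. The order of the 10 genes was close to its final form after 30 min. The rank correlation of a library's NTR with the 120 min means was 0.539 and 0.503 after 15 min, 0.842 and 0.952 after 30 min, and 0.939 to 1.0 at 60 and 90 min (Spearman's rho over 10 genes, a description without a test, since all values share the study's labelling and estimation).

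Among the regulators, Nfe2l2 lies on chromosome 2 (75675513 to 75704641, minus strand, GENCODE M21 on GRCm38, as for all locations here), and Keap1 on chromosome 9 (21229730 to 21239361, minus strand). The NTR of Nfe2l2 was 4.10% and 3.24% after 15 min, 20.2% and 16.7% after 30 min, 41.3% and 48.2% after 60 min, 68.4% and 71.0% after 90 min and 88.0% and 91.8% after 120 min. No 2 durations overlapped. The 90% intervals at 120 min were 84.3% to 91.1% and 88.1% to 94.8%. Old Nfe2l2 RNA, its CPM times 1 minus the NTR, was 129.7 and 124 CPM at 15 min. At 120 min 14.04 and 9.88 CPM remained, or 9.43% of the 15 min mean. Keap1, which restrains Nrf2, had an NTR of 2.21% and 0.290% after 15 min, 6.24% and 8.28% after 30 min, 20.2% and 20.7% after 60 min, 39.7% and 30.1% after 90 min and 56.5% and 46.8% after 120 min. Its replicates stood furthest apart at 90 and 120 min. Old Keap1 RNA at 120 min was 53.2% of its 15 min mean.

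The glutathione genes were intermediate. Slc7a11 (chromosome 3, 49892526 to 50443614, minus strand) encodes the transporter that brings in cystine. Gclc (chromosome 9, 77754535 to 77794485, plus strand) and Gclm (chromosome 3, 122245557 to 122270732, plus strand) encode the catalytic and modifier subunits of glutamate-cysteine ligase, which makes the first bond of glutathione. The NTR of Slc7a11 was 0.630% and 0% after 15 min, 8.18% and 9.35% after 30 min, 23.1% and 26.8% after 60 min, 48.2% and 38.4% after 90 min and 64.4% and 69.4% after 120 min. It rested on few reads, 152.1 to 341 per library, and the 90% intervals at 120 min were wide at 55.8% to 72.6% and 60.6% to 77.4%. Gclc had an NTR of 2.46% and 2.05% after 15 min, 7.53% and 10.1% after 30 min, 21.4% and 23.1% after 60 min, 40.6% and 36.6% after 90 min and 60.9% and 56.2% after 120 min. Its partner Gclm was at 2.52% and 1.25%, 4.74% and 5.83%, 12.01% and 15.7%, 26.7% and 21.5%, and 31.9% and 34.3% at the same 5 durations. From 30 min on, every Gclc library lay above every Gclm library of the same duration, so the RNAs of the 2 subunits of a single enzyme differed in their share of new RNA beyond the spread of replicates. Old RNA at 120 min was 24.2% of its 15 min mean for Slc7a11, 32.8% for Gclc and 69.8% for Gclm.

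By NTR at 120 min, Txnrd1, Srxn1 and Txn1 of the thioredoxin system ranked 6, 7 and 10 among the 10 genes. Among 9065 genes they were at percentiles 67.2, 62.7 and 3.25. Txn1 (chromosome 4, 57943373 to 57956411, minus strand) encodes thioredoxin, Txnrd1 (chromosome 10, 82833951 to 82897712, plus strand) the reductase that recharges it, and Srxn1 (chromosome 2, 152105516 to 152111376, plus strand) sulfiredoxin, which restores over-oxidised peroxiredoxins. The NTR of Txn1 was 0.670% and 0.260% after 15 min, 1.80% and 1.79% after 30 min, 5.53% and 4.64% after 60 min, 7.11% and 6.43% after 90 min and 8.68% and 10.1% after 120 min. The highest of the 10 values was 10.1%, and the 90% intervals at 120 min were 8.01% to 9.41% and 9.47% to 10.9%. Txnrd1 was at 2.01% and 1.54%, 7.56% and 7.29%, 20.5% and 23.1%, 36.9% and 35.2%, and 50.1% and 51.0% at the 5 durations. Srxn1 was at 1.87% and 0.820%, 9.22% and 7.32%, 18.0% and 22.9%, 31.6% and 31.4%, and 44.9% and 47.0%. Thioredoxin and its reductase therefore had NTRs that did not overlap at any duration. Old RNA at 120 min was 48.2% of its 15 min mean for Txnrd1 and 54.7% for Srxn1, and for Txn1 it was 106.3%.

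The 2 classic inducible enzymes stood toward opposite ends. Hmox1 (chromosome 8, 75093621 to 75100589, plus strand) encodes haem oxygenase, and Nqo1 (chromosome 8, 107388225 to 107403206, minus strand) a quinone reductase. The NTR of Hmox1 was 3.83% and 1.63% after 15 min, 15.6% and 19.3% after 30 min, 37.4% and 42.5% after 60 min, 61.6% and 58.1% after 90 min and 77.8% and 79.8% after 120 min. That of Nqo1 was 1.47% and 0.660% after 15 min, 2.26% and 1.34% after 30 min, 7.29% and 13.1% after 60 min, 18.0% and 19.3% after 90 min and 20.2% and 23.7% after 120 min. At every duration both Hmox1 libraries were above both Nqo1 libraries. Old Hmox1 RNA at 120 min was 20.0% of its 15 min mean, and old Nqo1 RNA was 97.5%.

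**Figure D2:**
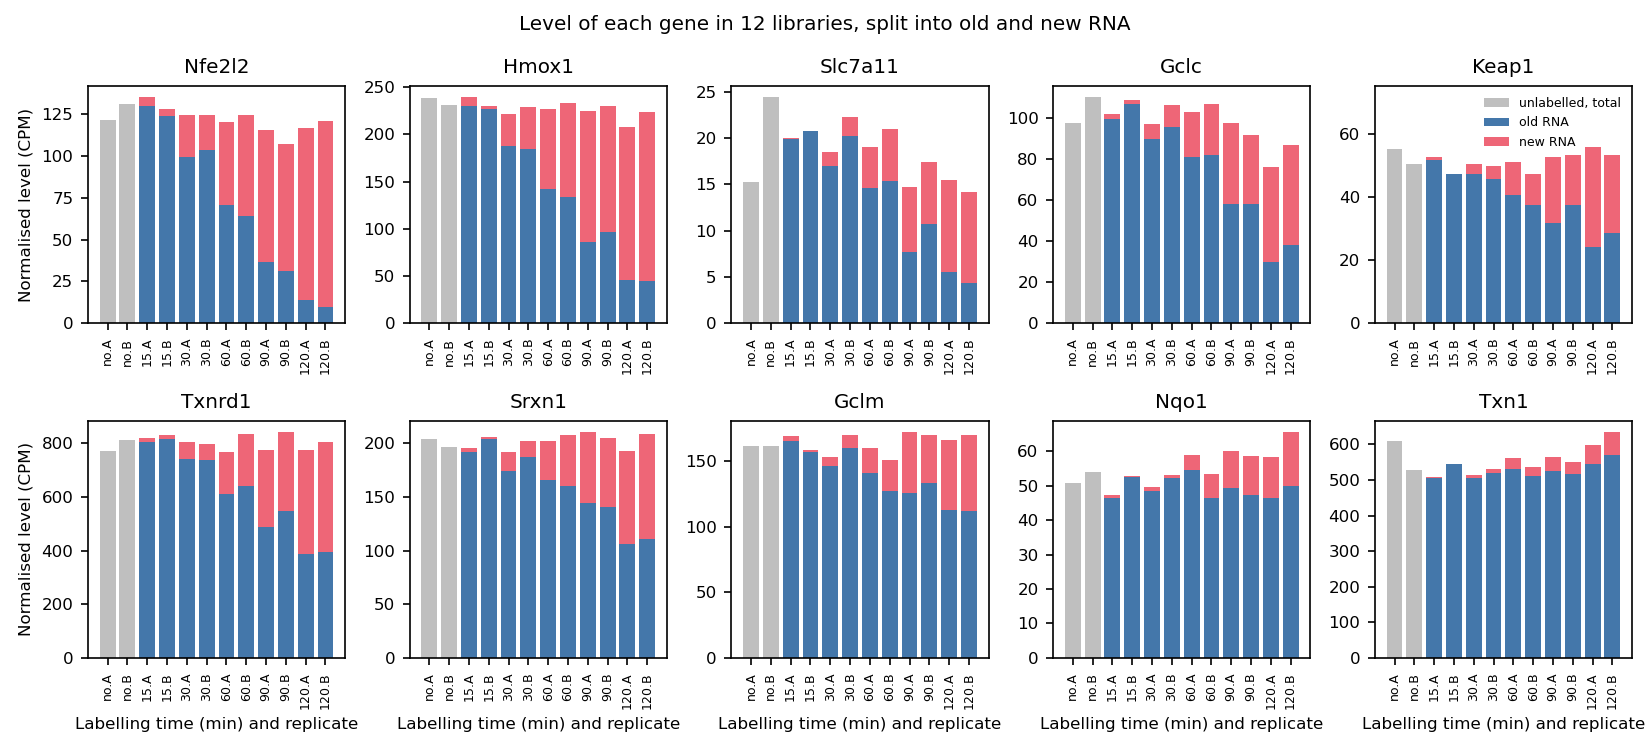
Normalised level (CPM) of each gene in all 12 libraries, by labelling time (min) and replicate. Grey bars are unlabelled totals, blue is old RNA and red is new RNA. At 120 min old RNA is a small base of the Nfe2l2 bars (14.04 and 9.88 CPM), whereas it makes up most of the Txn1 bars.

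If levels are taken as steady, the NTR gives an apparent half-life. At 120 min it was 36.2 ± 4.26 min for Nfe2l2, 53.6 ± 2.38 for Hmox1, 75.4 ± 7.19 for Slc7a11, 94.7 ± 8.56 for Gclc, 116 ± 22.7 for Keap1, 118 ± 2.33 for Txnrd1, 135 ± 6.15 for Srxn1, 207 ± 12.9 for Gclm, 338 ± 42.1 for Nqo1 and 847 ± 97.6 for Txn1 (min, SD, n = 2). The estimate depended on the duration. For Nfe2l2 it was 248 and 316 min after 15 min and 92.3 and 114 min after 30 min. It was 78.2 and 63.1 min after 60 min, 54.1 and 50.5 min after 90 min and 39.2 and 33.2 min after 120 min. For Hmox1 it was 266 and 633 min after 15 min and 123 and 97.3 min after 30 min. After 120 min the Hmox1 values were 55.3 and 52.0 min. For Txn1 it was 1145 and 1151 min after 30 min and 731 and 875 min after 60 min. After 90 min it was 846 and 939 min, and after 120 min 916 and 778 min. From 60 min on the Txn1 values overlapped. None was computed for Txn1 after 15 min, when its NTRs were below 0.01. No single duration therefore gives the half-life of these RNAs. The slope of log2 old RNA over the 10 labelled libraries was -1.90 ± 0.15 per hour for Nfe2l2, -1.27 ± 0.08 for Hmox1, -1.16 ± 0.12 for Slc7a11, -0.88 ± 0.10 for Gclc, -0.59 ± 0.03 for Txnrd1, -0.51 ± 0.05 for Keap1, -0.47 ± 0.04 for Srxn1 and -0.28 ± 0.03 for Gclm (SE). For Nqo1 it was -0.03 ± 0.04, and for Txn1 it was 0.05 ± 0.02, so no fall in this relative level was detectable for these genes. CPM is a level relative to the rest of a library, and old RNA per cell was not measured. The enlargement of new RNA described further below was not applied to the NTRs, the half-lives or the old RNA.

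Total levels moved far less than the share of new RNA. In bulk samples, fewer cells with an RNA and less of it per cell cannot be told apart. Over the 10 labelled libraries, 5 of the 10 genes changed with labelling time: Nqo1 and Txn1 rose, and Gclc, Slc7a11 and Nfe2l2 fell (edgeR quasi-likelihood test, Benjamini-Hochberg adjusted p below 0.05). Of all 11526 genes tested, 37.8% were called in the same fit, 18.3% higher and 19.5% lower, so that a count of 5 among 10 is not far from the background. The median slope was -0.0035 log2 units per hour over the 10 genes and 0.0036 over all genes. Between the longest and the shortest labelling, 120 against 15 min, 3 of the 10 were called (Nqo1 and Txn1 higher, Gclc lower), beside 19.3% of 11564 genes (7.93% higher, 11.3% lower). Without 15 min replicate A or 120 min replicate B, 1 was called, Gclc. Against no4sU, 2 were called at 120 min (Nqo1 higher, Gclc lower), beside 14.2% of genes (5.43% higher, 8.78% lower), and without 120 min replicate A none of them was called (4 at an unadjusted p under 0.05). At 15, 30, 60 and 90 min against no4sU none of the 10 was called, beside 0%, 0%, 0.0173% and 1.39% of genes. At an unadjusted p under 0.05 those counts were 0, 0, 0 and 2, beside 618, 670, 895 and 1869 of 11564 genes. DESeq2 called 0 of the 10 at each duration. Leaving out a no4sU replicate brought calls among the 10 at each of these durations, and more calls over the whole table as well. The comparisons share the 120 min or the no4sU libraries and are not independent of each other.

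Nqo1 was at 50.9 and 54.0 CPM without 4sU, 47.2 and 52.9 after 15 min, 49.7 and 53.0 after 30 min, 58.8 and 53.5 after 60 min, 60.1 and 58.5 after 90 min and 58.3 and 65.6 after 120 min. Every library from 60 min on except 60 min replicate B was above every shorter or unlabelled one. Its level rose by 0.19 ± 0.03 log2 units per hour (edgeR, adjusted p = 3.024e-05). It was higher at 120 than at 15 min by 0.31 ± 0.08 (adjusted p = 0.01109), a call lost without 15 min replicate A (adjusted p = 0.17) or 120 min replicate B (0.1908). Against no4sU it was higher by 0.24 ± 0.08 (adjusted p = 0.04827), and only 4 of 11 alternatives kept that call (adjusted p 0.01872 to 0.4536).

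Txn1, the other gene that rose, was at 609 and 527 CPM without 4sU, 509 and 546 after 15 min, 514 and 529.8 after 30 min, 562 and 536 after 60 min, 565 and 552 after 90 min and 598 and 634.5 after 120 min. Both 120 min libraries were above the other 8 labelled ones, but no4sU replicate A lay between them. The slope was 0.13 ± 0.02 log2 units per hour (edgeR, adjusted p = 5.542e-06). At 120 against 15 min it was higher by 0.22 ± 0.06 (adjusted p = 0.01496), a call lost without 15 min replicate A or 120 min replicate B and under library size alone (adjusted p = 0.06039). Against no4sU the difference was 0.12 ± 0.06 (adjusted p = 0.1994). Without no4sU replicate A it was 0.23 and passed (adjusted p = 0.0002816), and without no4sU replicate B it was 0.02 (adjusted p = 0.8657).

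Gclc was at 97.7 and 110.2 CPM without 4sU, 102 and 109 after 15 min, 97.1 and 106 after 30 min, 103 and 107 after 60 min, 97.4 and 91.8 after 90 min and 76.1 and 86.8 after 120 min. The 120 min libraries were the lowest of all 12. Its level fell by 0.19 ± 0.03 log2 units per hour (slope -0.19, edgeR, adjusted p = 1.12e-05). At 120 min it was lower than at 15 min (-0.37 ± 0.08, adjusted p = 0.00267) and than without 4sU (-0.35 ± 0.08, adjusted p = 0.005179). Without 120 min replicate A, the lower of the 2, both calls were lost (adjusted p = 0.06514 and 0.1118). Its partner subunit Gclm was between 151 and 172 CPM in all 12 libraries, with a slope of 0.04 ± 0.03 (adjusted p = 0.2599).

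Slc7a11 had its lowest level, 14.2 CPM, at 120 min and its highest, 24.4 CPM, without 4sU. Its libraries were at 15.2 and 24.4 CPM without 4sU, 20.0 and 20.8 after 15 min, 18.5 and 22.3 after 30 min, 19.0 and 20.96 after 60 min, 14.8 and 17.4 after 90 min and 15.4 and 14.2 after 120 min. The 4 libraries of 90 and 120 min lay below the 6 of shorter labelling, while the 2 no4sU libraries spanned nearly the whole range. Its slope, -0.28 ± 0.06 log2 units per hour, was the largest in size of the 10 (edgeR, adjusted p = 0.0001008). The difference at 120 min was -0.46 ± 0.16 against 15 min (adjusted p = 0.05064, past the threshold in 5 of 12 alternatives) and -0.45 ± 0.16 against no4sU (adjusted p = 0.06363). Without no4sU replicate A the latter was -0.72 and passed (adjusted p = 2.797e-05), and without no4sU replicate B it was -0.04 (adjusted p = 0.8963).

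Nfe2l2 was at 122 and 131 CPM without 4sU, 135 and 128 after 15 min, 125 and 124 after 30 min, 120.5 and 124 after 60 min, 116 and 107 after 90 min and 117 and 121 after 120 min. Both 15 min libraries were above the other 8 labelled ones. Its level fell by 0.10 ± 0.03 log2 units per hour (slope -0.0951, edgeR, adjusted p = 0.004791), and the call was lost without the 15 min libraries (-0.07, adjusted p = 0.1425). The differences at 120 min were -0.15 ± 0.06 against 15 min (adjusted p = 0.1017, past the threshold in 3 of 12 alternatives) and -0.09 ± 0.06 against no4sU (adjusted p = 0.344).

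Hmox1, Keap1, Gclm, Txnrd1 and Srxn1 did not pass in any of these comparisons. Hmox1, a widely used marker gene of the response, was at 239 and 231 CPM without 4sU, 239 and 230.2 after 15 min, 222 and 229 after 30 min, 227 and 233 after 60 min, 225 and 230.3 after 90 min and 208 and 223 after 120 min. The highest labelled library (239.3 CPM) was level with the higher unlabelled one (238.7 CPM), and the 120 min libraries lay below both unlabelled ones. Its slope was -0.05 ± 0.02 log2 units per hour (edgeR, adjusted p = 0.05776). Of 17 alternatives, 5 called it lower and 1 higher. Its difference at 120 min from no4sU was -0.12 ± 0.05 (adjusted p = 0.136). It passed under library size alone (-0.19, adjusted p = 0.02301) and without no4sU replicate B (-0.15, adjusted p = 0.04996), and it was -0.06 without 120 min replicate A (adjusted p = 0.6144). Keap1 ranged from 47.5 to 55.9 CPM with a slope of 0.07 ± 0.03 (adjusted p = 0.08176). Txnrd1 ranged from 767 to 842 CPM with a slope of -0.02 ± 0.02 (adjusted p = 0.3541), which was -0.06 and called under scaling by library size alone (adjusted p = 0.01489). Srxn1 ranged from 192 to 211 CPM with a slope of 0.02 ± 0.02 (adjusted p = 0.5853), whose sign turned under scaling by library size alone (-0.0173). A p above the threshold does not show that these levels were equal.

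The changes in total level ran against the share of new RNA, in these 10 genes as in the table at large. Spearman's rho between the NTR at 120 min and the slope was -0.818 over the 10 genes and -0.778 over 9065 genes. Both are descriptions, since the 2 measures share the 120 min libraries. Each gene was therefore set beside the 905 to 909 genes in its decile of the NTR at 120 min. Nqo1 had a higher slope than 98.2% of the genes in its decile, whose median was 0.06, and Keap1 a higher one than 92.8% (median -0.05). Slc7a11 and Gclc shared a decile with a median of -0.09, and they were at percentiles 2.43 and 13.3. Hmox1 was at percentile 82.3 (median -0.13) and Nfe2l2 at 74.1 (median -0.16), so their slopes were above those of most RNAs with such a share of new RNA. Txn1 was near the middle of its decile at percentile 56.0 (median 0.12), as were Gclm at 63.5 and Txnrd1 at 59.9, and Srxn1 was at 77.5.

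**Figure D3:**
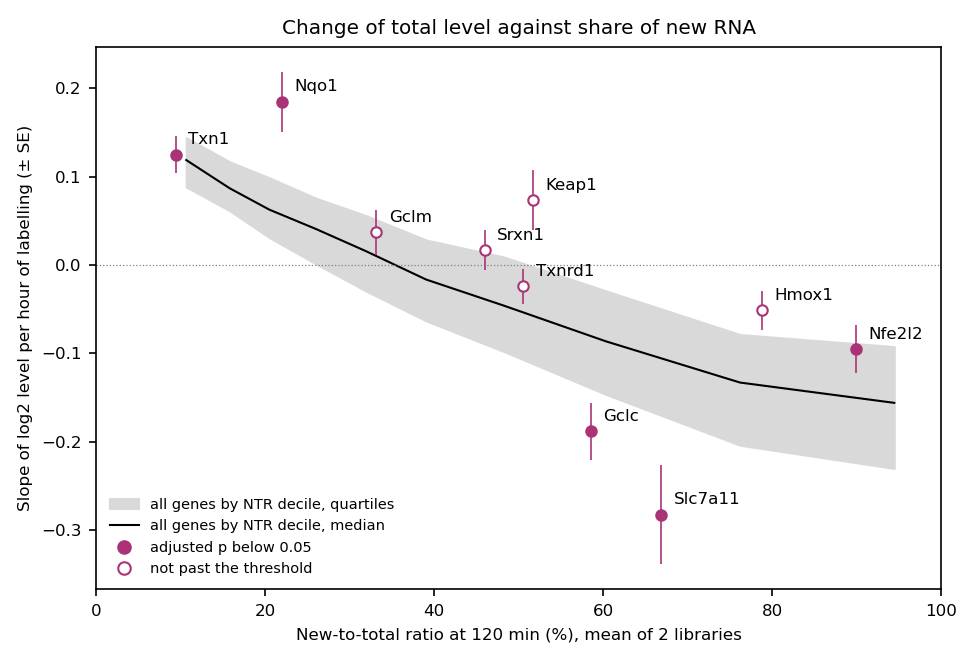
Slope of log2 total level per hour of labelling (± SE, 10 labelled libraries) against the NTR at 120 min (%, mean of 2 libraries). The line and band are the median and quartiles of 9065 genes in deciles of the NTR. Filled points passed an adjusted p of 0.05. Nqo1 (percentile 98.2 of its decile), Keap1 (92.8), Hmox1 (82.3) and Srxn1 (77.5) lie above the quartiles of their decile, and Gclc (13.3) and Slc7a11 (2.43) lie below them.

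The calls were also made after the new part of each count had been enlarged. A share d was found per library at which multiplying new RNA by 1/(1-d) brought the rank correlation of log2 change with NTR over all genes to 0. Measured against the 15 min libraries, d was 34.1% and 35.6% at 120 min. This setting removes the relation with NTR by construction and was chosen for the trend after seeing the data. Under it 6 of the 10 genes were called, 4 higher and 2 lower, beside 12.9% of 11591 genes (5.63% higher, 7.32% lower). Nqo1 still rose (slope 0.13, edgeR, adjusted p = 0.009845), and Gclc (-0.12, adjusted p = 0.003994) and Slc7a11 (-0.19, adjusted p = 0.01444) still fell. Nfe2l2 turned from falling to rising (0.08, adjusted p = 0.03571), and Hmox1, which had a slope below 0 and no call before, rose (0.09, adjusted p = 0.003727). Keap1 rose too (0.12, adjusted p = 0.01214). The call of Txn1 was lost (0.01, adjusted p = 0.6832). The direction of Nfe2l2 and Hmox1 thus depended on this scaling. Nqo1, Gclc and Slc7a11 kept both direction and call in the trend under all 17 alternatives run. Under the same kind of scaling, edgeR called none of the 10 genes at 120 min against 15 min or against no4sU. The shares of all genes called were 2.07% and 1.63%. At an unadjusted p under 0.05 there were 5 and 2 of the 10 genes, beside 1743 of 11617 and 1532 of 11594 genes.

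Of 48 other genes of the pathway, listed by role, 47 could be tested and 32 changed over the 10 labelled libraries, 26 higher and 6 lower, beside 37.8% of all genes (18.3% higher, 19.5% lower). Under scaling by library size alone these were 18 higher and 8 lower, and without 120 min replicate B 15 higher and 5 lower. With new RNA enlarged as above, 4 were higher and 1 lower, beside 5.63% of all genes called higher and 7.32% lower. Library size alone called 1172 of all 11526 genes higher and 3031 lower. The 47 pathway genes had a median slope of 0.09 log2 units per hour. Their median NTR at 120 min was 19.7%, below the 35.4% of all genes. Over all genes the median slope was 0.0870 in the decile of NTRs from 13.36% to 18.07% and 0.0627 in the next decile, up to 23.07%. At 120 against 15 min 15 were higher and 6 lower, beside 19.3% of all genes, and against no4sU 6 were higher and 2 lower, beside 14.2%.

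The partners and regulators of Nrf2 held 5 of the 6 genes that fell. Of 10, 5 fell and 1 rose, beside 19.5% of all genes called lower and 18.3% higher. Those that fell were the Maf partners Mafg and Mafk, the competing repressor Bach1, the kinase Gsk3b and Cul3. Rbx1, the ring subunit of the same ligase as Cul3, rose. The group had a median slope of -0.11 and a median NTR of 61.0%. Over all genes, the decile of NTRs from 53.9% to 67.8% had a median slope of -0.0865. Its quartiles were -0.1466 and -0.0293, so the group median lay within them. Mafg, a small Maf partner with an NTR of 80.6%, was at 154 and 154 CPM without 4sU, 150.3 and 164 after 15 min and 133 and 123 after 120 min. Its slope was -0.17 ± 0.03 (edgeR, adjusted p = 9.469e-07), and with new RNA enlarged it was -0.02 (adjusted p = 0.681). Cul3, the scaffold of the ligase that Keap1 serves, was the single gene of the list that was called lower under that scaling (-0.13, adjusted p = 0.0002291). It was singled out after its values were seen.

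In the enzyme groups every gene that passed rose, apart from Txnip, beside 18.3% of all genes called higher. Group medians of the NTR at 120 min ran from 14.37% to 19.75%. Group medians of the slope ran from 0.08 to 0.12. Over all genes, the decile of NTRs from 13.36% to 18.07% had a median slope of 0.0870 and a lower quartile of 0.0616. All 6 NADPH genes rose, among them Tkt (0.13 ± 0.02, adjusted p = 3.098e-07) and Taldo1 (0.15 ± 0.02, adjusted p = 2.428e-06) of the pentose phosphate pathway. All 5 haem and iron genes rose, including the ferritin chains Ftl1 (0.12 ± 0.02, adjusted p = 1.363e-06) and Fth1 (0.12 ± 0.02, adjusted p = 3.099e-06) and the haem transporter Slc48a1 (0.13 ± 0.02, adjusted p = 9.456e-06), by edgeR. Of 11 glutathione genes, 5 rose, led by the peroxidase Gpx1 (0.20 ± 0.03, adjusted p = 4.512e-07). Among 5 thioredoxin and peroxiredoxin genes 3 rose, including Prdx1 (0.13 ± 0.02, adjusted p = 1.12e-06). Txnip, which encodes an inhibitor of thioredoxin and was listed at an NTR of 100.0%, fell (-0.34 ± 0.06, adjusted p = 1.107e-05). All 3 superoxide and peroxide enzymes rose, with Sod1 (0.17 ± 0.02) at the smallest p of the list (adjusted p = 1.715e-07). Of 7 detoxification genes 3 rose. Of the 10 genes named here by rank of p, Sod1, Tkt, Gpx1 and Slc48a1 kept their calls with new RNA enlarged, and Mafg, Prdx1, Ftl1, Taldo1, Fth1 and Txnip lost them. Under that scaling at most 1 gene of any enzyme group was called. Summed fibroblast markers were also higher at 120 min (18850 and 19420 CPM) than without 4sU (15780 and 15930 CPM), and their part in these rises was not tested. Ferritin and Prdx1 RNAs have near-identical copies elsewhere in the genome, and how reads were divided among copies is not given, so their values are uncertain.

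**Figure D4:**
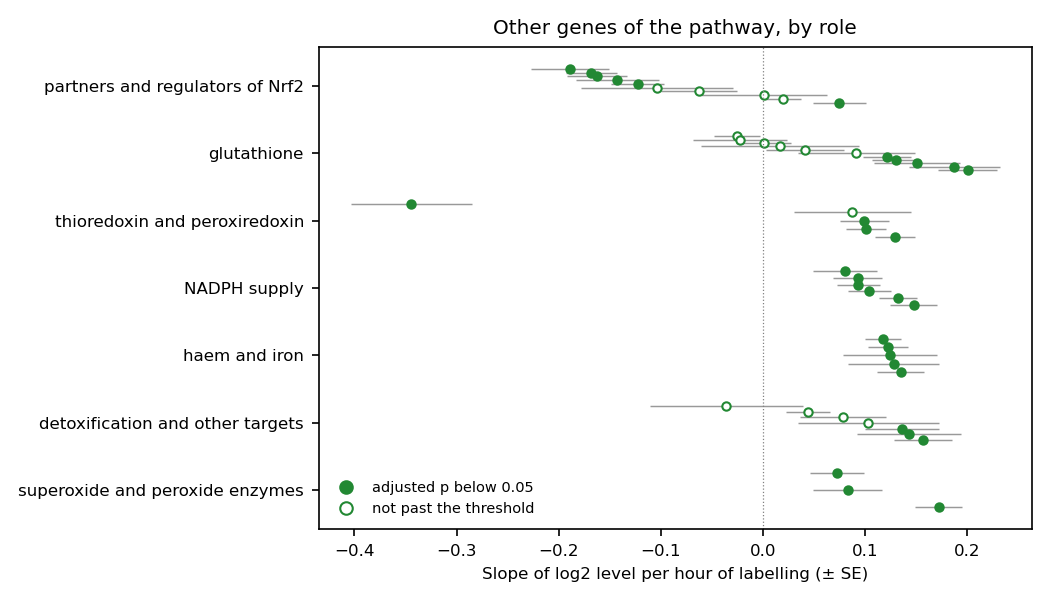
Slope of log2 total level per hour of labelling (± SE, 10 labelled libraries) for 47 other pathway genes, grouped by role. Filled points passed an adjusted p of 0.05. Points of the partners and regulators lie mostly left of 0, and points of the enzyme groups mostly right of it, with Txnip (-0.34) as the leftmost.

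The transcripts differed in features that the choice of genes did not use. In the longest coding transcript of each gene, uridine made up 19.9% of bases in Keap1 and 31.4% in Slc7a11, with the other 8 between 23.0% and 29.2%, beside a median of 24.6% over 8955 genes. The 3′ UTR was shortest in Nfe2l2 (451 bases) and longest in Slc7a11 (7367 bases), with a median of 1239 bases over all genes. The pentamer AUUUA, the core of AU-rich decay elements, occurred 11 times in the 3′ UTR of Slc7a11, 6 times in Gclm, 4 times each in Gclc and Txnrd1, 2 times each in Srxn1 and Txn1, and once each in Nfe2l2, Hmox1 and Nqo1. It was absent from Keap1, and 72% of all genes had at least 1. The longer element UUAUUUAUU occurred 2 times in the 3′ UTR of Txnrd1 and in none of the others, Slc7a11 included. Of all genes, 8.41% had it. These counts are not scaled to the length of the 3′ UTR. Over the 10 genes, rho between the NTR at 120 min and length was 0.248, a description only.

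Genes with the closest NTR profile over the 10 labelled libraries were found among 9065 genes by the root mean square difference. For Nfe2l2 they were Spen (2.11 percentage points) and Klf16 (2.52). For Hmox1 they were Tmem11 (1.64) and Insig1 (1.73), and for Slc7a11 Gramd4 (1.57) and Snx11 (1.66). Those of Gclc were Cemip (1.34) and Tns3 (1.51), and that of Gclm was Snx19 (0.883). Keap1 was closest to Ttc9c (1.57) and Ski (1.72), Txnrd1 to Slc25a51 (0.862), and Srxn1 to 2310011J03Rik (1.26) and Cdv3 (1.29). Nqo1 was closest to Rnaseh2a (1.14) and Gpr89 (1.19). Txn1 was closest to Rpl23a (0.476) and Rpsa (0.502), which encode ribosomal proteins. None of the genes named here as nearest was another of the 10.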

How the data were processed

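The authors deposited a table of genes with estimated counts for each library, not scaled between libraries, and for each of 10 labelled libraries the NTR as a fraction (posterior maximum, mean, 0.05 and 0.95 quantiles, per the file headers) and 2 parameters of a distribution, each a score that was not used. The submitters' processing notes name cutadapt, Bowtie2 2.3.0 and STAR 2.7.10b without roles. Neither the build nor the counting tool, annotation or use of strand is given in the sources used here. Of the counts, 20.4% were not whole (tolerance 1e-06), and they were rounded for tests.

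Groups came from sample titles. Tests used edgeR 4.0.16 under R 4.3.3 (filterByExpr, TMM, quasi-likelihood, Benjamini-Hochberg over all genes), with all 12 libraries in a single fit for contrasts (11564 genes, biological coefficient of variation 4.44%) and the 10 labelled libraries for the trend (11526 genes). SE was the absolute log2 change divided by the root of F. DESeq2 1.42.0 was an alternative, beside other scalings, no filter, fewer libraries, and each library left out. The fits were tested on simulated data. NTR measures used genes averaging 100 or more counts. TPM used the deposited lengths. Half-life was ln 2 times time divided by -ln(1-NTR), for NTRs between 0.01 and 0.99. A 2 against 2 exact permutation test cannot give a p below 0.333, so the NTR was not tested. Python 3.11.15, pandas 2.3.3, scipy 1.17.1 and matplotlib 3.10.9 were used.

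The 10 genes and the lists were chosen with earlier results of these data known. All 10 are named, and of the other pathway genes the 10 with the smallest trend p among the 32 called. Mafk, Bach1, Gsk3b, Cul3 and Rbx1 were named after their values were seen. The 2 nearest genes by NTR are named for each of the 10, except that the second is not reported here for Gclm and Txnrd1. Markers were Col1a1, Col1a2, Col3a1, Vim, Fn1, Thy1, Pdgfrb and S100a4 (fibroblast), Cdh1 and Krt8 (epithelial), Ptprc and Cd68 (immune; Cd68 at most 6.76 CPM) and Pecam1 and Cdh5 (endothelial; Cdh5 at most 1.55 CPM). Epcam, Krt18 and Adgre1 were also on the marker lists, but the deposited table held no gene under these symbols.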

Additional observations from a re-analysis of the deposited data

How the results depend on the processing

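Calls among the 10 genes over the labelled libraries numbered 5 to 6 when each library was left out in turn, 7 under library size alone (Hmox1 and Txnrd1 added as lower), 4 without the 15 min libraries (Nfe2l2 lost) and 6 with new RNA enlarged by the implied loss. Genes called overall were 3418 to 4372 with a library left out and 1500 with the implied loss. Of the pathway list, 15 to 26 were then higher (15 without 120 min replicate B) and 5 to 6 lower, and with the implied loss 4 and 1. At 120 against 15 min, calls among the 10 were 1 to 3 with a library left out, 5 under library size alone, 6 in a fit of only the 2 groups, 6 in a fit of only the 10 labelled libraries (added after seeing the data) and 0 with the implied loss. Genes called there were 657 to 1037 with a library left out, 1453 by DESeq2, 3818 with the 2 groups, 3700 with the 10 labelled libraries and 241 with the implied loss, against 2228. At 120 min against no4sU, calls among the 10 were 0 to 3 with a library left out, 1 by DESeq2, 0 with the 2 groups and 0 with the implied loss. Genes called were 452 (without 120 min replicate A) to 3533 (without no4sU replicate A), 1059 by DESeq2, 171 with the 2 groups and 189 with the implied loss, against 1643. At 15, 30, 60 and 90 min against no4sU, leaving out a library gave 0 to 2, 0 to 1, 0 to 1 and 0 to 3 calls among the 10. Without no4sU replicate B, Txn1 was lower at 15, 30 and 60 min and Slc7a11 higher at 15 min. Without no4sU replicate A, Gclc, Nfe2l2 and Slc7a11 were lower at 90 min. Leaving out no4sU replicate A or B also raised the number of genes called over the whole table at 15, 30, 60 and 90 min. The added calls among the 10 genes are therefore not read as particular to them. A group left with a single library was assumed to vary like the others. Fits with fewer libraries have fewer degrees of freedom, and for the other changes the cause was not tested.

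Library size alone moved the split of higher and lower genes to 1172 and 3031 in the trend (2111 and 2251 with TMM), 426 and 1867 at 120 against 15 min (917 and 1311) and 203 and 1684 against no4sU (628 and 1015).

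Signs turned as follows. With the implied loss, log2 changes at 120 min against no4sU were 0.1765 for Nfe2l2, 0.0922 for Hmox1, 0.0637 for Txnrd1 and -0.0503 for Txn1. Against 15 min they were 0.1561 for Nfe2l2, 0.12 for Hmox1 and 0.0171 for Txnrd1, and slopes were 0.0838 for Nfe2l2, 0.0873 for Hmox1 and 0.0214 for Txnrd1. Under library size alone, values against no4sU were -0.0179 for Keap1, -0.0081 for Gclm and -0.0649 for Srxn1. Against 15 min they were -0.022 for Gclm and -0.0568 for Srxn1, and the slope of Srxn1 was -0.0173. With each library left out in turn, values against no4sU were -0.02 to 0.1098 for Keap1, -0.0432 to 0.0324 for Txnrd1 and -0.0579 to 0.0624 for Srxn1, and against 15 min they were -0.0119 to 0.0829 for Gclm and -0.062 to 0.0583 for Srxn1. Srxn1 against 15 min, 0.0001 in the fit of all 12 libraries, was at -0.0016 with RLE factors and with DESeq2, -0.0018 with no filter and -0.0029 with the 2 groups. None of these values was called except the slopes of Nfe2l2 and Hmox1 with the implied loss.

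With the replicate letter as a block, 6 of the 10 genes were called in the trend (Hmox1 added, adjusted p = 0.04662), 4 at 120 against 15 min (Slc7a11 added, adjusted p = 0.02478) and 3 against no4sU (Slc7a11 added), with 4447, 2315 and 1737 genes called. Srxn1 at 120 against 15 min was then at -0.0005. Differences A minus B correlated at -0.129 to 0.15 between groups, with 3 of 15 pairs of groups over 0.1, and the labels do not say what the letter marks.

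With the posterior mean in place of the maximum, the NTR at 120 min of each of the 10 genes moved by less than the SD of the 2 libraries. Leaving out 1 of 2 libraries gives the value of the other and is no check of the NTR. Of 40 slopes of old RNA, 5 moved by more than their SE (Keap1 to -0.39 without replicate A and -0.62 without B, and Gclm to -0.32, Txnrd1 to -0.62 and Txn1 to 0.01 under library size alone). Slc7a11 rested on 152.1 to 341 reads per library.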
